A study of Mus musculus with 20 samples.

Results

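The effect of mitochondrial strain was described in the livers of old mice, by comparing 5 old B6-mtAKR mice with 5 old B6 mice. These 10 mice were chosen by the strain and age in their labels from 20 mice, of which the other 10 were young mice of the same strains. B6 is the inbred strain C57BL/6J, labelled as having lower heteroplasmy of 12A in OriL. B6-mtAKR is C57BL/6J-mtAKR/J, a conplastic strain labelled as having higher heteroplasmy of 12A in OriL. Conplastic means that the nuclear genome is that of C57BL/6J while the mitochondrial DNA (mtDNA) comes from another strain, here AKR/J. All 5 old B6-mtAKR mice were 19 months old. Among the old B6 mice, replicates 3 and 4 were 19 months old and replicates 1, 2 and 5 were 20 months old, so every 20-month mouse was B6. A fit of the 19-month mice alone was therefore also made, and it is given below for some genes and lists and as counts. The young mice of both strains were 3 to 4 months old. All were without a treatment or a transgene in the labels. The 2 strains differ in the whole mtDNA molecule and not in OriL alone, and neither the heteroplasmy of each mouse nor its sex was in the labels. The replicates were numbered mice of a group, and the p-values measure only the spread between these liver samples.

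OriL is the site where replication of the light strand of mtDNA starts, and heteroplasmy means that molecules with different sequences exist side by side in 1 cell. The mtDNA encodes core subunits of the respiratory chain, while the nucleus encodes the other subunits, the polymerases and the factors that replicate and transcribe mtDNA. The liver is rich in mitochondria, stores and releases glucose, makes and burns fatty acids, and has a strong daily rhythm of gene expression. Hepatocytes and resident macrophages also respond to interferons, the cytokines that switch on antiviral genes.

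Levels below are in CPM, the count of a gene scaled to a fixed library total. The old mice had between 79908293 and 102027587 estimated counts in total, of which 7.65% to 15.9% came from genes encoded by mtDNA. Liver identity was checked with 9 hepatocyte markers, none of which was at 0 in all old mice, with summed levels of 77724 to 167816 CPM. Of the genes on the Y chromosome, Ddx3y had 0 to 4 counts, Eif2s3y 0 to 2, Uty 8 to 31 and Kdm5d 29 to 92 in the old mice. B6 replicate 3 and B6-mtAKR replicate 5 stood apart from the rest, each with a median Spearman correlation to the other old mice of 0.973, against 0.984 or more in the other 8. Old replicates 1 and 2 of both strains had 53522 to 54912 transcripts above 0, and the other 6 old mice had 45209 to 48772, so this split did not follow strain. The results below were therefore also computed without both mice that stood apart.

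Across the 15403 genes tested, 74 genes had an unadjusted p below 0.01 for strain in old mice, which is 0.48% of the genes tested. Of these, 42 genes (0.273%) were higher and 32 genes (0.208%) were lower in old B6-mtAKR mice. In edgeR's quasi-likelihood fit, 0 genes had a Benjamini-Hochberg adjusted p below 0.05, while 544 genes had an unadjusted p below 0.05, of which 293 were higher in old B6-mtAKR mice. The adjusted p was 0.9997 for the genes named here, so none of the differences below passed at a controlled false discovery rate in edgeR. DESeq2 gave 4 genes with an adjusted p below 0.05, namely Nr1d1 (DESeq2 adjusted p = 2.6e-04), mt-Nd3 (3.1e-04), Adgrf1 (0.015) and the antibody segment Ighv14-2 (0.0079), and limma voom gave 0. The levels of the 5 old B6-mtAKR mice did not overlap with those of the 5 old B6 mice in 93 genes, or 0.604% of the genes tested, of which 48 (0.312%) were higher and 45 (0.292%) were lower in B6-mtAKR. Without any strain effect, a fraction of 0.01 of the genes is expected at p below 0.01 and 0.05 at p below 0.05. Full separation of the groups is then expected in a fraction of 0.00794 of the genes. The 74, 544 and 93 genes are fewer than these fractions give, so the counts are no excess over chance. All p-values below are from the edgeR test and unadjusted unless named otherwise, and each one given for a gene is followed by that of a two-sided exact permutation test over the 10 mice of that age. Counts of genes with p below 0.01 use the edgeR test. The 5 mice of a strain are given in the order of their replicate number.

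The 15 higher and the 15 lower genes with the smallest p, at a mean of at least 1 CPM and with a gene symbol, make 30 genes, most of which are described below in their groups. In 14 of the 30 genes the levels of the strains did not overlap, and the exact permutation test then gave p = 0.00794, the smallest value that 5 mice against 5 mice allow. Leaving out 1 old mouse at a time kept the direction of all 30 genes, and 12 of the 30 had p below 0.01 in each of the 10 fits. Among these 12 were Nr1d1, Adgrf1, Ociad2, Mknk2, Ppp1r3g, Mug2, Cyp2b13, mt-Nd3, Paxx, Itpk1 and Loxl4. In the remaining 18, the p without 1 mouse reached at most 0.021, in A1bg without B6-mtAKR replicate 4 and in Pkp3 without B6 replicate 2. The 30 genes were chosen by p in these same mice, so neither the lack of overlap nor these fits are a separate test of them.

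**Figure D1:**
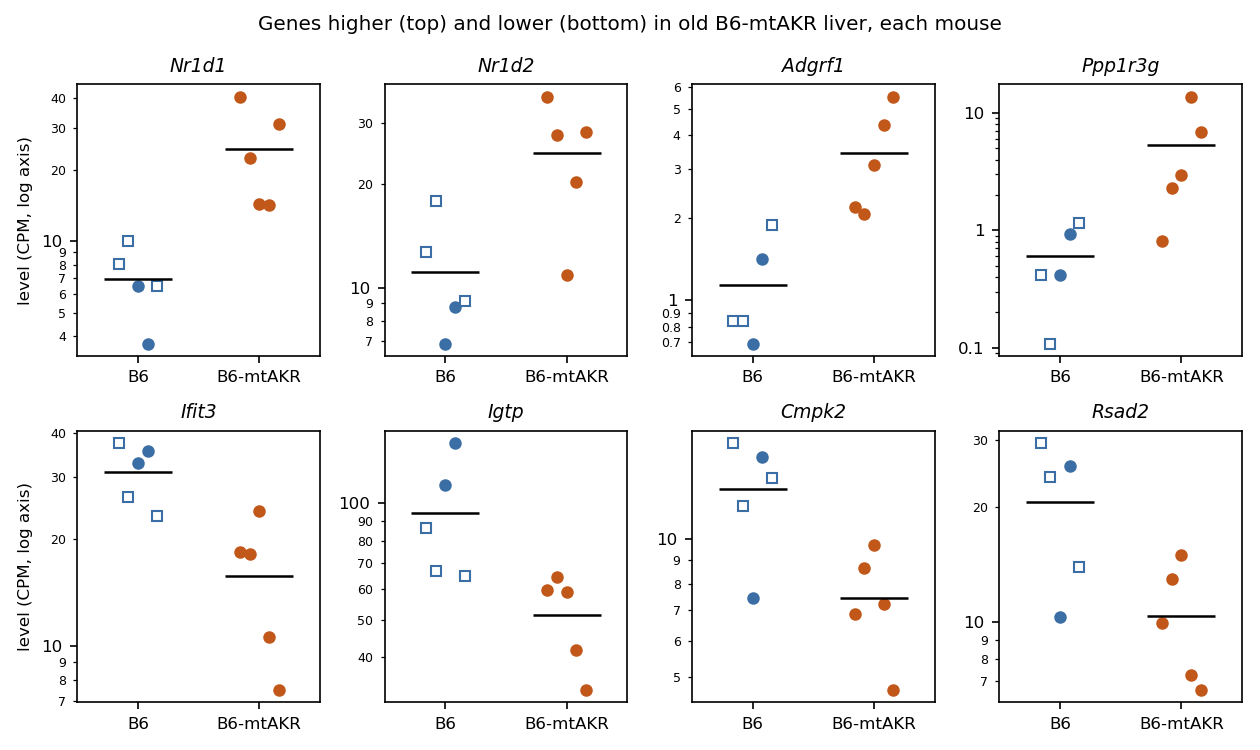
Levels of 8 of the named genes in each old mouse, in CPM on log axes that differ between panels, with filled circles for 19-month mice, open squares for 20-month mice and lines at the group means. The top panels show genes higher in B6-mtAKR, such as Nr1d1 at 14.2 to 40.4 CPM against 3.73 to 10.01 CPM in B6, and the bottom panels show lower genes, of which Igtp does not overlap between the strains.

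The gene with the smallest p among the lower genes was mt-Nd3 (ENSMUSG00000064360), the mtDNA gene of a core subunit of complex I of the respiratory chain. It lies on the plus strand of the mtDNA at chrM:9459-9806 in GRCm38, between the tRNA genes mt-Tg, which ends at 9458, and mt-Tr, which starts at 9808. The level of mt-Nd3 was 791, 814, 969, 424 and 499 CPM in the 5 old B6 mice and 187, 124, 159.5, 206 and 385 CPM in the 5 old B6-mtAKR mice. Every old B6-mtAKR mouse was below every old B6 mouse, although B6-mtAKR replicate 5 came close to the 19-month B6 replicate 4. The means were 699 ± 229 and 212 ± 101 CPM (SD, n = 5 each), a log2 fold change of -1.72 with an SE of 0.319 (edgeR p = 1.5e-04, exact permutation p = 0.00794). With the 19-month mice alone the log2 fold change was -1.72 with an SE of 0.414, and without both mice that stood apart it was -1.90.

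The nuclear genome of the reference holds an annotated copy of this gene, the unprocessed pseudogene Gm28438 (ENSMUSG00000101939), on the minus strand of chromosome 1 at chr1:24612775-24613119. The 2 sequences are shown because kallisto, the tool that made the counts, divides reads between transcripts by their sequence. Of the 318 stretches of 31 bases in mt-Nd3, 98.1% also occur in Gm28438. The first 60 bases of each, from GENCODE M21 transcripts of GRCm38, are the following, with the base that differs in capitals.
mt-Nd3: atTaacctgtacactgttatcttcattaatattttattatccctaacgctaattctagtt
Gm28438: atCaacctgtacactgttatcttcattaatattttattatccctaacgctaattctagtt
Over the 345 bases that could be compared, the copy differed from mt-Nd3 by 1 substitution, T3C, counted from 1 at the start of the gene, which is base 9461 of the reference mtDNA. The copy also lacks the last 3 bases of mt-Nd3. The reference is of C57BL/6J origin, and the AKR/J base at this position was not analysed here.

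The copy was higher in B6-mtAKR on average. The level of Gm28438 was 370.3, 267, 1729, 873 and 774 CPM in old B6 mice and 730.3, 849, 1721, 1074 and 2532 CPM in old B6-mtAKR mice. The strains overlapped, with B6 replicates 3, 4 and 5 within the range of the B6-mtAKR mice. When the counts of the pair were added, the level was 1161, 1081, 2698, 1297 and 1273 CPM in old B6 mice and 917, 972, 1880.3, 1279 and 2917 CPM in old B6-mtAKR mice. In the sum the strains overlapped almost fully, and the mice with the highest sums were B6 replicate 3 and B6-mtAKR replicate 5, the mice that stood apart. The log2 fold change of the sum was 0.09 with an SE of 0.354 (edgeR p = 0.81, exact permutation p = 0.944).

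The share of the pair's counts that kallisto gave to mt-Nd3 separated the strains. In old B6 mice this share was 68.1%, 75.3%, 35.9%, 32.7% and 39.2%, and in old B6-mtAKR mice it was 20.4%, 12.7%, 8.48%, 16.1% and 13.2%. No B6-mtAKR mouse reached the lowest B6 mouse, and both 19-month B6 mice, replicates 3 and 4, were among the 3 B6 mice with the lower shares. The young mice showed the same separation, with shares of 32.1% to 64.1% in B6 and 11.4% to 18.6% in B6-mtAKR. The log2 fold change of the sum in young mice was -0.12 with an SE of 0.527 (edgeR p = 0.82, exact permutation p = 0.897), and a difference from that in old mice was not called by the interaction test (adjusted p = 0.99998). So the strains differed in how the counts were divided between the 2 sequences, and a difference in their sum was not detectable.

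**Figure D2:**
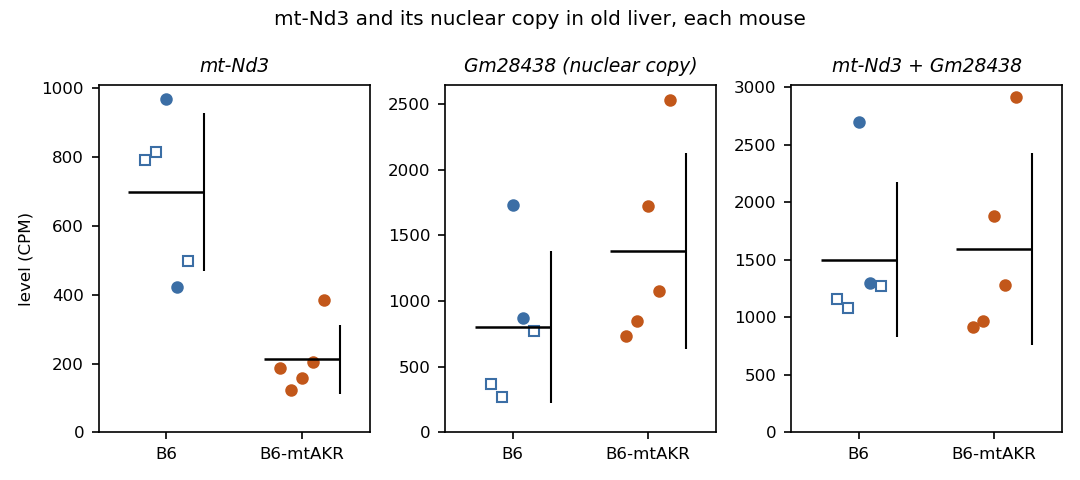
Levels of mt-Nd3, of its nuclear copy Gm28438 and of their sum in each old mouse, in CPM, with filled circles for 19-month mice, open squares for 20-month mice, horizontal lines at the means and vertical lines for the SD. The 5 B6-mtAKR mice lie below the 5 B6 mice for mt-Nd3 alone, at 124 to 385 CPM against 424 to 969 CPM, and overlap with them in the sum.

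The other mtDNA genes did not separate the strains. Of the 13 mtDNA genes that encode proteins, 6 were higher and 7 were lower in old B6-mtAKR mice, and the median log2 fold change was -0.09, against -0.01 over all genes tested. Of the 13, 1 had p below 0.01, against 0.48% of all genes. This was mt-Nd3, before its counts were summed with those of its copy. The next smallest p was that of mt-Nd5, a further subunit of complex I, at 3886 ± 1378 CPM in old B6 mice and 3284 ± 1078 CPM in old B6-mtAKR mice (log2 fold change -0.24, SE 0.270, edgeR p = 0.39, exact permutation p = 0.444). For mt-Co1, the catalytic subunit of complex IV, the log2 fold change was -0.12 with an SE of 0.348 (edgeR p = 0.74, exact permutation p = 0.754). Another 5 mtDNA genes, mt-Co2, mt-Atp6, mt-Co3, mt-Nd4l and mt-Nd4, share 62.8% to 99.9% of their stretches of 31 bases with an annotated nuclear copy. The sums of mt-Co2, mt-Atp6 and mt-Co3 with their copies had p between 0.70 and 0.73 in the edgeR test. The copies of mt-Nd4l and mt-Nd4 were at 0 CPM in every old mouse, so their sums check nothing beyond the genes alone. Of the stretches of mt-Co1, 63.9% occur in other genes, and it was not summed with them. In the 19-month mice alone 12 of the 13 genes were lower in B6-mtAKR, with a median of -0.43. This fit rests on 2 B6 mice, one of which, replicate 3, had the highest mtDNA share of the old B6 mice, at 14.3%. When that mouse alone was left out of the 10, the median of the 13 genes was 0.26.

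Among 25 nuclear genes that maintain or transcribe mtDNA, none had p below 0.05 in old mice, and the median log2 fold change was 0.02. Polrmt, the mitochondrial RNA polymerase, was at 14.98 ± 1.56 CPM in old B6 mice and 15.3 ± 1.55 CPM in old B6-mtAKR mice (log2 fold change 0.03, SE 0.111). Tfam, which packages mtDNA and starts its transcription, was at 40.3 ± 2.98 and 41.5 ± 4.01 CPM (log2 fold change 0.04, SE 0.101). The log2 fold change of Polg, the catalytic subunit of the mtDNA polymerase, was 0.16 with an SE of 0.112 (edgeR p = 0.17, exact permutation p = 0.151), and that of Coq7, an enzyme of ubiquinone synthesis, was 0.22 with an SE of 0.235 (edgeR p = 0.36, exact permutation p = 0.619). Vdac1, the channel of the outer mitochondrial membrane, was at 176 ± 16.4 and 172 ± 15.4 CPM (log2 fold change -0.03, SE 0.116).

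Genes of the interferon response leaned one way in old mice. All 59 tested genes of this list had a negative log2 fold change, that is a lower level in old B6-mtAKR than in old B6 mice, where 8047 of all 15403 genes did. The median log2 fold change was -0.47, against -0.01 over all genes tested. Of the 59, 7 had p below 0.01, all of them lower, against 0.208% of all genes, and 25 had p below 0.05, all of them lower, against 1.63% of all genes. Without both mice that stood apart 4 had p below 0.01. These genes are induced together by the same cytokines, so their directions are not independent of each other. The promoters of members with p below 0.01 are shown because this response is known to act through short elements near the start site, the interferon-stimulated response element and the gamma-activated site. The first was searched as GAAA, any NN and again GAAA, and the second as TTCNNNGAA, on both strands, in windows from 250 bases before to 50 bases after the start, and the matches are in capitals. The sequences are from RefSeq on GRCm38.p6, in the direction of transcription. All show matches to the first element, and Igtp has 1 match to the second. The promoter of Cmpk2 held neither, and that of Ifit3b, which held the first, is not printed.
Ifit3, chr19:34583279-34583578, plus strand: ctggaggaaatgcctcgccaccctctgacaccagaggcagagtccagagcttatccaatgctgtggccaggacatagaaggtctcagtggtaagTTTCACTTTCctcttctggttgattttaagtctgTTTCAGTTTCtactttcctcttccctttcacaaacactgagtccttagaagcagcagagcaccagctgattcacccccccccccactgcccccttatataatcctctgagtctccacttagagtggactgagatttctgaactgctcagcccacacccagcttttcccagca
Ifit1, chr19:34640639-34640938, plus strand: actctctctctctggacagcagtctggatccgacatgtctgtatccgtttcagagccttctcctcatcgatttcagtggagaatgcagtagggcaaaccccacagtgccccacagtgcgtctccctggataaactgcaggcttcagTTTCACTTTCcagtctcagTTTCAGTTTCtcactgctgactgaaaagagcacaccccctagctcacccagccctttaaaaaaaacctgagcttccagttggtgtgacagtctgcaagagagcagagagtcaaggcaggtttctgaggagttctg
Rsad2, chr12:26456403-26456702, minus strand: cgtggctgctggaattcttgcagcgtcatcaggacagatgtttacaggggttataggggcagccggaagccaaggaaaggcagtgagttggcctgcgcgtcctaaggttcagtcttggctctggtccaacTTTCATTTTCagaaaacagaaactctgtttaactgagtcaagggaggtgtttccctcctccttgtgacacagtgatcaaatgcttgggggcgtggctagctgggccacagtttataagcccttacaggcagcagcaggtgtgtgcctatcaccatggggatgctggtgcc
Isg15, chr4:156200769-156201068, minus strand: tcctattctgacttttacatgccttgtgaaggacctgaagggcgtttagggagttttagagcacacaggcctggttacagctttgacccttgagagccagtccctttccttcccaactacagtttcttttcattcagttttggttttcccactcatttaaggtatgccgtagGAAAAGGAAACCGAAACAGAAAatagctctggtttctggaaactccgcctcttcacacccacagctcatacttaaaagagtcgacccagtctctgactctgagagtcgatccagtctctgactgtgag
Igtp, chr11:58199306-58199605, plus strand: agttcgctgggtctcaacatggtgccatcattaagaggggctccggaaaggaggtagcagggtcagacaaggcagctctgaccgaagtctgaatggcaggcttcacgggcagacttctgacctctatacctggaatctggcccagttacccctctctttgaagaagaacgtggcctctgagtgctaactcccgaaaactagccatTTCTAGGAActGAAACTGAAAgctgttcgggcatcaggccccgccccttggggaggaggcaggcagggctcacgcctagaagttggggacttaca
In Isg15 the 3 matches overlap and form 1 run. The first element was in 22 of the 44 interferon genes of the list that had a promoter in the table, against 3.99% of all 27025 genes and 3.44% of all 32851 promoters of the same length. The second was in 10 of the 44, against 9.55% of all genes and 8.3% of all promoters. A match is a description of these letters and not evidence of binding.

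Among effectors that block viral RNA, Ifit3 was at 37.3, 26.4, 32.8, 35.6 and 23.2 CPM in old B6 mice and at 18.4, 18.2, 24.0, 10.6 and 7.50 CPM in old B6-mtAKR mice. B6-mtAKR replicate 3, just above B6 replicate 5, made the only overlap. The log2 fold change of Ifit3 was -0.98 with an SE of 0.273 (edgeR p = 0.0036, exact permutation p = 0.0159). Its neighbour Ifit3b, which shares reads with it (61.8% of the 31-base stretches of Ifit3 occur in it), had a log2 fold change of -1.05 with an SE of 0.293 (edgeR p = 0.0037, exact permutation p = 0.0159), and the sum of the pair had a log2 fold change of -0.996 (edgeR p = 0.0035, exact permutation p = 0.0159). The value of the sum thus lay between those of Ifit3 and Ifit3b, and Ifit3 made up 77.3% to 81.1% of the sum in the old mice. Ifit1, of the same family, was at 33.8, 24.0, 23.9, 34.4 and 16.5 CPM in old B6 mice and at 16.1, 16.1, 16.1, 4.96 and 4.90 CPM in old B6-mtAKR mice. The strains did not overlap in Ifit1, although B6 replicate 5 was just above 3 of the B6-mtAKR mice. Its log2 fold change was -1.19 with an SE of 0.369 (edgeR p = 0.0074, exact permutation p = 0.00794).

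Igtp, an interferon-induced GTPase that acts against intracellular parasites, was at 86.4, 66.8, 112, 143 and 65.0 CPM in old B6 mice and at 59.5, 64.5, 58.9, 41.6 and 32.8 CPM in old B6-mtAKR mice. All 5 B6-mtAKR mice were below all 5 B6 mice, the closest being B6-mtAKR replicate 2 and B6 replicate 5. Its log2 fold change was -0.88 with an SE of 0.247 (edgeR p = 0.0039, exact permutation p = 0.00794), and in the 19-month mice alone it was -1.31 with an SE of 0.253. Rsad2, the antiviral enzyme viperin, and Cmpk2, its neighbouring nucleotide kinase, were both lower in B6-mtAKR on average but overlapped between the strains, since the 19-month B6 replicate 3 was within the range of the B6-mtAKR mice, as was B6 replicate 5 for Rsad2. Rsad2 was at 29.4, 24.0, 10.3, 25.5 and 14.0 CPM in old B6 mice and at 9.93, 12.9, 14.99, 7.25 and 6.64 CPM in old B6-mtAKR mice (log2 fold change -0.996, SE 0.304, edgeR p = 0.0064, exact permutation p = 0.0476). For Cmpk2 the means were 12.8 ± 3.43 and 7.43 ± 1.90 CPM (SD, n = 5 each), with a log2 fold change of -0.79 and an SE of 0.227 (edgeR p = 0.0044, exact permutation p = 0.0238). Isg15, a ubiquitin-like protein of the antiviral response, was at 21.9 ± 6.77 and 12.1 ± 4.52 CPM (log2 fold change -0.86, SE 0.272, edgeR p = 0.0083, exact permutation p = 0.0238). Ifit1 and Isg15 are outside the 30 genes chosen by p and were named after their values were seen, to complete the 7.

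Further up the pathway, the transcription factor Irf9, which binds the interferon-stimulated response element, had a log2 fold change of -0.36 with an SE of 0.141 (edgeR p = 0.025, exact permutation p = 0.0317), and Stat2, a signal transducer that works with it, one of -0.36 with an SE of 0.207 (edgeR p = 0.11, exact permutation p = 0.159). The RNA sensors Ddx58 (RIG-I) and Ifih1 (MDA5) had log2 fold changes of -0.46 (edgeR p = 0.024, exact permutation p = 0.0397) and -0.37 (edgeR p = 0.072, exact permutation p = 0.103). Oas1b, Oas2 and Ifi27 were closest to no difference, with log2 fold changes of -0.01, -0.04 and -0.06, and each turned its sign in some of the alternative fits. Irf9 and the other genes of this paragraph were likewise named after their values were seen, as parts of the pathway.

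The summed level of the list was 1977, 1652, 2001, 2469 and 1671 CPM in old B6 mice and 1590.3, 1576, 1844, 1227 and 982 CPM in old B6-mtAKR mice. Only B6-mtAKR replicate 3 lay within the range of the B6 mice, and the highest mouse was the 19-month B6 replicate 4. The median log2 fold change of the list was negative in all of 24 alternative fits, between -0.58 in the 19-month mice alone and -0.36 without B6-mtAKR replicate 5. Without both mice that stood apart it was -0.42. In the 19-month mice alone 56 of the 59 genes, and not all, were lower in B6-mtAKR. In young mice the median over the same genes was 0.03 and no gene of the list had p below 0.01. By the interaction test 2 of the 59, Ifit3b (-1.17, SE 0.360) and Cmpk2 (-0.88, SE 0.308), had p below 0.01 for a difference between the strain effects in old and young mice, where 0.669% of all genes did.

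**Figure D3:**
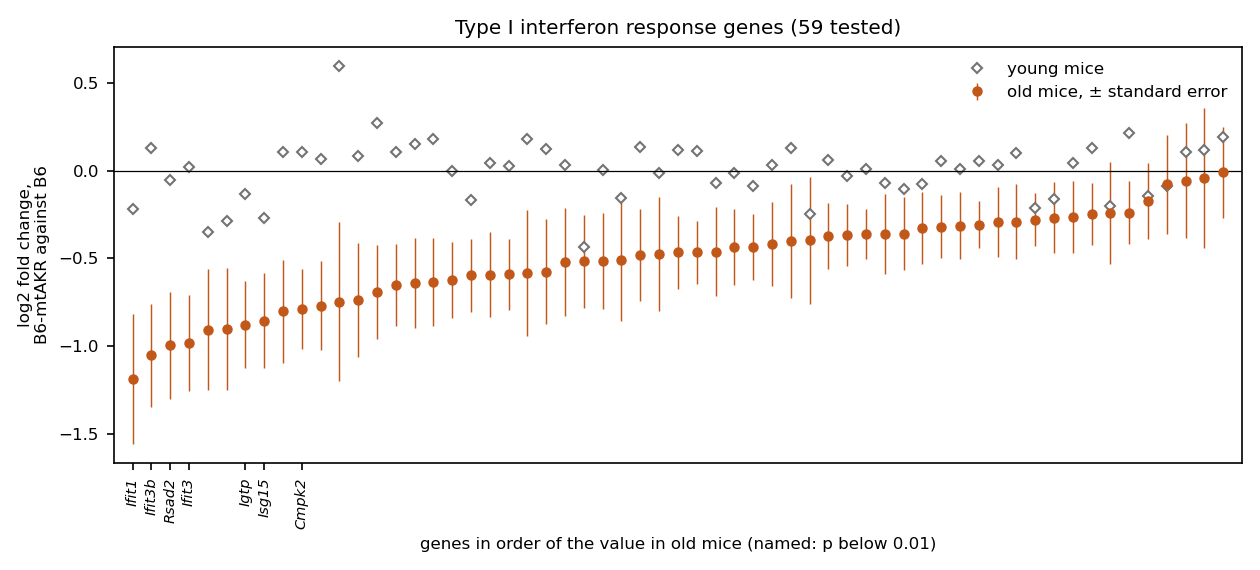
Log2 fold change of B6-mtAKR over B6 for the 59 tested interferon response genes, in order of the value in old mice, with filled circles and SE for old mice and open diamonds for young mice, and with names under the 7 genes with p below 0.01. All 59 values of old mice are below 0, with a median of -0.47, while those of young mice lie on both sides of 0, with a median of 0.03.

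Most markers of B cells and of T and NK cells were lower in old B6-mtAKR mice, and for 3 other kinds of immune cells no direction is given. In bulk liver, fewer cells of a type and less RNA per cell cannot be told apart. Of all 15403 genes tested, 8047 were lower in old B6-mtAKR mice. All 9 tested B cell markers were lower in old B6-mtAKR mice, with a median log2 fold change of -0.36 and summed levels of 6.24 to 10.6 CPM in B6 and 5.67 to 8.27 CPM in B6-mtAKR mice. In the 19-month mice alone 6 of the 9, and not all, were lower, with a median of -0.28. Of 14 tested markers of T and NK cells, 13 were lower, with a median of -0.44 and sums of 6.90 to 18.1 and 6.05 to 11.7 CPM. This median was -0.19 without B6 replicate 3 and -1.08 in the 19-month mice alone. Of 13 tested markers of Kupffer cells and macrophages, 11 were lower, with a median of -0.21 and sums of 441 to 952 and 532 to 716 CPM. That median was smaller than its spread between mice, 0.30 (SD), and ranged from -0.34 to -0.06 when 1 mouse was left out, so no direction is given for this list. The same holds for plasma cells, with 4 of 7 tested markers higher and a median of 0.20 (SD 0.45), and for neutrophils, with 7 of 9 lower and a median of -0.15 (SD 0.41). In none of these 5 lists was a marker at 0 in all old mice or had p below 0.01, and the part of these cells in the lower interferon genes was not tested.

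Among single markers, Timd4, a receptor of resident Kupffer cells, was at 7.17 ± 1.88 CPM in old B6 mice and 4.80 ± 0.717 CPM in old B6-mtAKR mice (log2 fold change -0.58, SE 0.195, edgeR p = 0.012, exact permutation p = 0.0476). Gpnmb, a glycoprotein of lipid-laden macrophages, was at 0.236 to 0.698 CPM in old B6 mice and 0.325 to 14.9 CPM in old B6-mtAKR mice, where replicate 5 alone was high (log2 fold change 2.85, SE 1.02, edgeR p = 0.018, exact permutation p = 0.317). The B cell receptor subunit Cd79b had a log2 fold change of -0.55 with an SE of 0.221 (edgeR p = 0.029, exact permutation p = 0.0238). Of the markers of red blood cells 6 of 7 were lower, with a median of -0.88, and their sums were 212 to 1279 CPM in old B6 mice and 259.8 to 499.7 CPM in old B6-mtAKR mice. The sum of 1279 CPM was that of B6 replicate 3, without which the median was -0.48, and it was -0.38 without both mice that stood apart.

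The gene with the smallest p of all was Nr1d1 (ENSMUSG00000020889, chr11:98767932-98775333, minus strand), which encodes REV-ERB alpha, a repressor of the circadian clock that also acts on liver lipid and glucose genes. Nr1d1 was at 8.07, 10.01, 6.49, 3.73 and 6.48 CPM in old B6 mice and at 40.4, 22.4, 14.3, 14.2 and 31.1 CPM in old B6-mtAKR mice. All 5 B6-mtAKR mice were above all 5 B6 mice, and B6-mtAKR replicate 1 was the highest. The means were 6.95 ± 2.31 and 24.5 ± 11.3 CPM (SD, n = 5 each), a fold of 3.52 (log2 fold change 1.81, SE 0.325, edgeR p = 1.1e-04, exact permutation p = 0.00794). In the 19-month mice alone the log2 fold change was 2.26 with an SE of 0.480. In young mice the log2 fold change of Nr1d1 was 0.76 (edgeR p = 0.24, exact permutation p = 0.532), and the difference between the ages was not called by the interaction test (1.08 on the log2 scale, SE 0.754).

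Of 23 clock genes tested, 4 had p below 0.01 and all 4 were higher in old B6-mtAKR mice, against 0.273% of all genes, while the median log2 fold change of the list was 0.01. Without both mice that stood apart Nr1d1 was the 1 clock gene with p below 0.01. The 4 were the repressors Nr1d1 and Nr1d2 and the activators Tef and Dbp, transcription factors of the clock's output. Nr1d2 (REV-ERB beta) was at 12.7, 17.9, 6.89, 8.79 and 9.14 CPM in old B6 mice and at 35.7, 27.8, 10.9, 20.3 and 28.3 CPM in old B6-mtAKR mice. Only B6-mtAKR replicate 3 fell within the B6 range. Its log2 fold change was 1.15 with an SE of 0.314 (edgeR p = 0.0032, exact permutation p = 0.0317, with edgeR p no longer below 0.01 without B6 replicate 3). Tef was at 18.4, 24.6, 21.2, 26.1 and 23.0 CPM in old B6 mice and at 43.7, 31.9, 24.0, 31.7 and 34.2 CPM in old B6-mtAKR mice. Again B6-mtAKR replicate 3 was within the B6 range and the other 4 were above it. For Tef the log2 fold change was 0.55 with an SE of 0.154 (edgeR p = 0.0039, exact permutation p = 0.0238, with edgeR p no longer below 0.01 without replicate 1 of either strain). Dbp was low, at 0.707 ± 0.292 and 1.81 ± 1.25 CPM, and its log2 fold change of 1.37 (SE 0.449, edgeR p = 0.010, exact permutation p = 0.0635) leaned on B6-mtAKR replicates 1 and 5, at 3.55 and 2.71 CPM (0.97 without B6-mtAKR replicate 1). In the 19-month mice alone the log2 fold changes of Tef and Dbp were 0.48 (SE 0.226) and 1.03 (SE 0.652). Their edgeR p was then no longer below 0.01, and in both genes the B6-mtAKR mice overlapped the range of the 19-month B6 pair. Nr1d1 and Nr1d2 kept an edgeR p below 0.01 in that fit.

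Of Arntl, Clock and Npas2 and the period and cryptochrome genes, none had p below 0.01. Arntl, which encodes the activator BMAL1, was at 27.2 ± 3.46 CPM in old B6 mice and 25.1 ± 3.16 CPM in old B6-mtAKR mice (log2 fold change -0.12, SE 0.123, edgeR p = 0.37, exact permutation p = 0.365). Npas2, a partner of BMAL1 and a gene that REV-ERB proteins are known to repress, was at 14.7 ± 2.56 and 9.72 ± 3.61 CPM (log2 fold change -0.59, SE 0.224, edgeR p = 0.021, exact permutation p = 0.0397). Its edgeR p was below 0.01 when the transcripts detected were a batch in the model, a split that is not in the labels. The log2 fold change of Npas2 was -0.36 (SE 0.308) in the 19-month mice alone and -0.51 without both mice that stood apart. In neither fit was its edgeR p below 0.01. For the period genes Per1, Per2 and Per3 the log2 fold changes were 0.33, -0.26 and 0.63, with p between 0.12 and 0.57 in the edgeR test, and for Clock, Cry1 and Cry2 they were -0.07, -0.21 and -0.03. B6 replicate 1 had 3.32 CPM of Per1, where the other 9 old mice had 12.2 to 19.0 CPM. The hour at which each mouse was killed was not in the labels, so strain and hour cannot be told apart in these genes. Old and young mice differed in the levels of clock genes, with Arntl at 27.2 CPM in old B6 and 0.963 CPM in young B6 mice, Npas2 at 14.7 and 0.125 CPM, Nr1d2 at 11.1 and 92.8 CPM and Dbp at 0.707 and 122 CPM. Age and hour cannot be told apart in that difference. By the interaction test, 1 of the 23 clock genes had p below 0.01 for a difference between the strain effects in old and young mice, against 0.669% of all genes. This was Nr1d2 (1.09 on the log2 scale, SE 0.366, log2 fold change 0.07 in young mice).

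**Figure D4:**
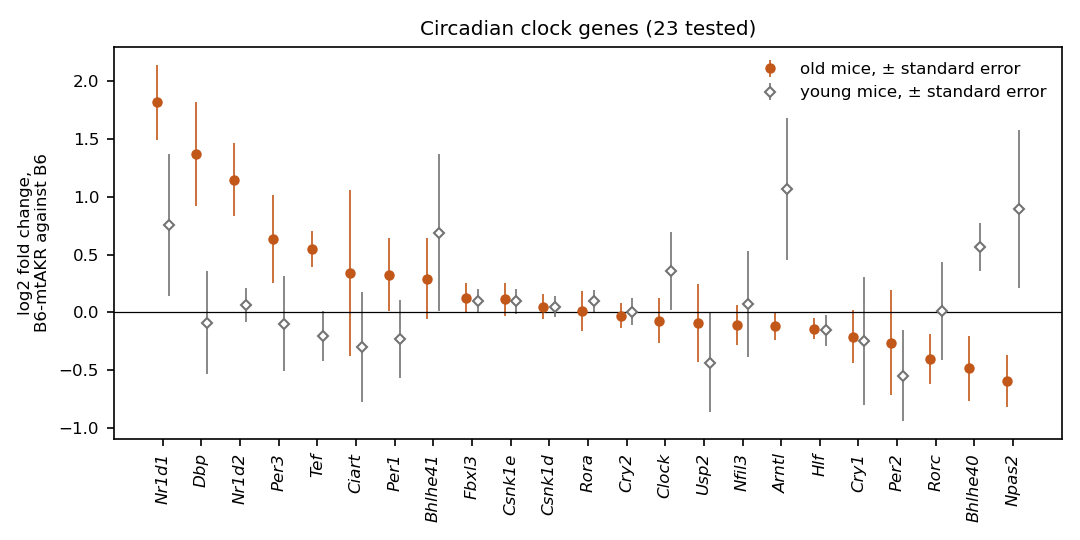
Log2 fold change of B6-mtAKR over B6 for the 23 clock genes tested, with its SE, as filled circles for old mice and open diamonds for young mice. Nr1d1 is the highest in old mice, at 1.81, and Npas2 the lowest, at -0.59.

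The promoters of Nr1d2 and Tef are shown because clock factors are known to act through short elements there, and because those of Nr1d1 and Dbp held none of the letters searched. The motifs were the E-box CACGTG, the D-box TTATGTAA and the core of the ROR response element AGGTCA, on both strands, with matches in capitals.
Nr1d2, chr14:18239057-18239356, minus strand: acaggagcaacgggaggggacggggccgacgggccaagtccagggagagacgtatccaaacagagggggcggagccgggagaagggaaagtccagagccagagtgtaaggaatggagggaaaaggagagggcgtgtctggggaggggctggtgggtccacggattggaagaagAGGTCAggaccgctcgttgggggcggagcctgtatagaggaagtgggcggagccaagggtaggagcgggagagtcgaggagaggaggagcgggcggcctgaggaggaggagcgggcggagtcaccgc
Tef, chr15:81802423-81802722, plus strand: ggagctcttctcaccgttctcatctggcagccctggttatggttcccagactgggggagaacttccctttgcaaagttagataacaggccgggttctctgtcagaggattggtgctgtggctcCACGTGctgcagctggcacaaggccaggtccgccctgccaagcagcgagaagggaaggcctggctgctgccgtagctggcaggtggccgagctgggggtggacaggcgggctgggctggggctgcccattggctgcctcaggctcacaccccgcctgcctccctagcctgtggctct
Of the 18 clock genes of the list with a promoter in the table, 5 held CACGTG, against 8.09% of all genes, 1 held TTATGTAA, against 1.11%, and 5 held AGGTCA, against 18.1%. The window shown for Tef is 1 of 2 start sites of this gene in the table.

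Among genes of glucose storage, Ppp1r3g, a subunit that directs protein phosphatase 1 to glycogen and favours its synthesis after a meal, had the largest log2 fold change of the 30 named genes. It was at 0.414, 0.108, 0.416, 0.929 and 1.16 CPM in old B6 mice and at 0.802, 2.30, 2.95, 13.7 and 6.87 CPM in old B6-mtAKR mice. B6-mtAKR replicate 1 was within the B6 range and the other 4 were above it, most of all replicate 4. This was a log2 fold change of 3.15 with an SE of 0.783 (edgeR p = 0.0020, exact permutation p = 0.0238). In the 19-month mice alone it was 2.97 with an SE of 1.17, and the B6-mtAKR mice overlapped the range of the 19-month B6 pair. Without both mice that stood apart it was 2.95. In neither of these 2 fits was the edgeR p below 0.01. The log2 fold change of Ppp1r3g was 1.91 in young mice (edgeR p = 0.017, exact permutation p = 0.127), which were not used to choose the gene. In 27 genes of glycogen metabolism Ppp1r3g was the only one with p below 0.01, against 0.48% of all genes, and the median log2 fold change was 0.03. Stbd1, which tethers glycogen to membranes, was at 34.3 ± 12.6 and 57.2 ± 16.5 CPM (log2 fold change 0.74, SE 0.256, edgeR p = 0.014, exact permutation p = 0.0635). Its edgeR p was below 0.01 when the transcripts detected were a batch in the model, a split that is not in the labels. The log2 fold change of Stbd1 was 0.66 (SE 0.313) in the 19-month mice alone and 0.53 without both mice that stood apart. In neither fit was its edgeR p below 0.01. The liver glycogen synthase Gys2 and the liver phosphorylase Pygl had log2 fold changes of 0.07 (SE 0.133) and -0.15 (SE 0.167). None of 36 genes of glycolysis and none of 19 genes of gluconeogenesis had p below 0.01, with medians of 0.02 and 0.07. Pck1, the enzyme that opens gluconeogenesis, was at 1748 ± 572 and 2468 ± 1090 CPM (log2 fold change 0.50, SE 0.336, edgeR p = 0.16, exact permutation p = 0.278).

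In the mTOR pathway, which couples nutrients to growth, 1 of 48 genes had p below 0.01, against 0.48% of all genes, and the median log2 fold change was 0.03. This gene was Flcn, folliculin, which acts on the Rag GTPases that bring mTOR complex 1 to the lysosome. Flcn was at 16.2, 16.5, 11.4, 15.5 and 14.4 CPM in old B6 mice and at 19.5, 23.0, 15.4, 24.9 and 20.2 CPM in old B6-mtAKR mice. B6-mtAKR replicate 3 was within the B6 range and the other 4 were above every B6 mouse. This gave a log2 fold change of 0.48 with an SE of 0.146 (edgeR p = 0.0066, exact permutation p = 0.0317, with edgeR p no longer below 0.01 without B6-mtAKR replicate 4), and it was 0.64 in young mice (edgeR p = 0.038, exact permutation p = 0.103). Mtor, the kinase itself, was at 22.4, 21.02, 21.6, 21.6 and 28.1 CPM in old B6 mice and at 26.5, 24.8, 25.4, 32.1 and 26.1 CPM in old B6-mtAKR mice. The strains overlapped, since B6 replicate 5 was within the range of the B6-mtAKR mice, while the other B6 mice were below it. The log2 fold change of Mtor was 0.23 with an SE of 0.115 (edgeR p = 0.065, exact permutation p = 0.0397). Ulk1, the kinase that starts autophagy and that mTOR holds back, had a log2 fold change of 0.46 (edgeR p = 0.021, exact permutation p = 0.0397). Akt1, the kinase that carries the insulin signal towards mTOR, was at 63.7 to 84.5 CPM in old B6 mice and 54.2 to 64.8 CPM in old B6-mtAKR mice (log2 fold change -0.28, SE 0.110, edgeR p = 0.024, exact permutation p = 0.0159). Fbxo32, a muscle ubiquitin ligase and target of FOXO factors, was at 2.97 ± 0.742 and 3.63 ± 0.597 CPM (log2 fold change 0.29, SE 0.190, edgeR p = 0.16, exact permutation p = 0.167).

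Of 37 genes of fatty acid and triglyceride synthesis 1, Lpin1, had p below 0.01, against 0.48% of all genes. None of 41 genes of fatty acid oxidation and ketogenesis and none of 27 genes of cholesterol synthesis and uptake did. Lpin1, which encodes the phosphatidate phosphatase lipin 1 and is also a coactivator in liver, was at 30.5, 26.6, 32.3, 62.8 and 56.0 CPM in old B6 mice and at 63.1, 74.9, 75.8, 167 and 56.0 CPM in old B6-mtAKR mice. The strains overlapped only through B6-mtAKR replicate 5 and B6 replicates 4 and 5. Its log2 fold change was 1.07 with an SE of 0.330 (edgeR p = 0.0069, exact permutation p = 0.0238), and it was 0.70 without B6-mtAKR replicate 4, the highest mouse. The edgeR p was no longer below 0.01 without that mouse or without any one of B6 replicates 1, 2 and 3. Lpin2, its paralogue, was at 103 ± 19.9 and 168 ± 71.0 CPM (log2 fold change 0.71, SE 0.246, edgeR p = 0.014, exact permutation p = 0.0238). Over 37 genes of fatty acid and triglyceride synthesis the median was -0.04, over 41 genes of fatty acid oxidation and ketogenesis it was 0.04 and over 27 genes of cholesterol synthesis and uptake it was -0.04. Abcg5 and Abcg8, the 2 parts of the sterol exporter into bile, had log2 fold changes of 0.64 (edgeR p = 0.015, exact permutation p = 0.0476) and 0.56 (edgeR p = 0.035, exact permutation p = 0.0952).

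Among the other higher genes, Adgrf1, an adhesion G protein-coupled receptor, was at 0.837, 0.836, 0.693, 1.41 and 1.89 CPM in old B6 mice and at 2.18, 2.05, 3.11, 4.36 and 5.52 CPM in old B6-mtAKR mice. The lowest B6-mtAKR mouse was above the highest B6 mouse. Its log2 fold change was 1.61 with an SE of 0.346 (edgeR p = 5.4e-04, exact permutation p = 0.00794), and it was 1.70 in the 19-month mice alone, with an SE of 0.481. In young mice the log2 fold change of Adgrf1 was 0.42 (edgeR p = 0.23, exact permutation p = 0.222).

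Mknk2, the kinase MNK2 that phosphorylates the cap-binding factor eIF4E, was at 52.5, 72.6, 69.5, 65.0 and 52.2 CPM in old B6 mice and at 78.0, 91.7, 78.3, 109 and 103.6 CPM in old B6-mtAKR mice. No mouse of one strain lay within the range of the other (log2 fold change 0.56, SE 0.143, edgeR p = 0.0019, exact permutation p = 0.00794). For Nox4, an NADPH oxidase that makes hydrogen peroxide, the levels were 4.45 to 7.93 CPM in old B6 mice and 8.10 to 17.1 CPM in old B6-mtAKR mice, again without overlap (log2 fold change 0.79, SE 0.226, edgeR p = 0.0042, exact permutation p = 0.00794). Ociad2, a protein of mitochondria and endosomes, had a log2 fold change of 0.88 (edgeR p = 0.0011, exact permutation p = 0.0159), and Enpp2, which encodes the lysophospholipase D autotaxin, one of 0.50 (edgeR p = 0.0047, exact permutation p = 0.0159). Mycl, a transcription factor of the Myc family, had a log2 fold change of 0.54 (edgeR p = 0.0049, exact permutation p = 0.0238), Dsg1c, a desmoglein of cell junctions, one of 1.38 (edgeR p = 0.0049, exact permutation p = 0.0238) and Tcp11l2 one of 0.88 (edgeR p = 0.0037, exact permutation p = 0.0238). Dsg1c was highest in B6-mtAKR replicate 5, at 28.2 CPM, and its log2 fold change was 0.81 without both mice that stood apart, no longer with p below 0.01.

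Mug2 and Cyp2b13 belong to families whose members share sequence, so their counts are uncertain. Mug2, a murinoglobulin and protease inhibitor of plasma, was at 206 to 406 CPM in old B6 mice and 439 to 555 CPM in old B6-mtAKR mice, without overlap (log2 fold change 0.82, SE 0.211, edgeR p = 0.0022, exact permutation p = 0.00794). Of its stretches of 31 bases, 65.1% occur in other genes. Cyp2b13, a cytochrome P450 that is higher in female than in male mouse liver, was at 57.5 to 132 CPM in old B6 mice and 118 to 289 CPM in old B6-mtAKR mice (log2 fold change 1.03, SE 0.284, edgeR p = 0.0034, exact permutation p = 0.0159), with 40.8% of its stretches in other genes.

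Among the lower genes, Itpk1, an inositol phosphate kinase, had the tightest levels. It was at 34.6, 34.4, 37.1, 34.9 and 30.6 CPM in old B6 mice and at 25.8, 28.0, 28.6, 23.8 and 21.2 CPM in old B6-mtAKR mice. The strains did not overlap, and the log2 fold change was -0.43 with an SE of 0.107 (edgeR p = 0.0017, exact permutation p = 0.00794). Loxl4, a lysyl oxidase that cross-links collagen and elastin, was at 37.9, 42.6, 32.9, 36.7 and 30.9 CPM in old B6 mice and at 10.001, 27.1, 23.3, 16.9 and 7.50 CPM in old B6-mtAKR mice. It too separated the strains (log2 fold change -1.09, SE 0.298, edgeR p = 0.0031, exact permutation p = 0.00794). Ppard, which encodes the fatty acid receptor PPAR delta, was at 43.8, 32.5, 48.1, 33.3 and 34.2 CPM in old B6 mice and at 13.7, 27.1, 29.4, 20.2 and 9.39 CPM in old B6-mtAKR mice. All 5 B6-mtAKR mice were lower (log2 fold change -0.94, SE 0.272, edgeR p = 0.0045, exact permutation p = 0.00794, with edgeR p no longer below 0.01 without B6 replicate 3).

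Paxx, a factor of DNA end joining, was at 38.6 ± 9.78 and 21.8 ± 5.15 CPM (log2 fold change -0.82, SE 0.201, edgeR p = 0.0015, exact permutation p = 0.0159), overlapping only through the 19-month B6 replicate 4. A1bg, a plasma glycoprotein of the immunoglobulin superfamily, was the most abundant of the 30 genes. It was at 4922, 5682, 4702, 5938 and 2958 CPM in old B6 mice and at 2942, 3892, 2223, 1713 and 1125 CPM in old B6-mtAKR mice. The 20-month B6 replicate 5 was the 1 B6 mouse within the B6-mtAKR range (log2 fold change -1.02, SE 0.316, edgeR p = 0.0069, exact permutation p = 0.0159). Cdx4, a homeobox factor, was low, at 2.67 to 4.21 CPM in old B6 mice and 0.2004 to 2.18 CPM in old B6-mtAKR mice (log2 fold change -1.41, SE 0.415, edgeR p = 0.0053, exact permutation p = 0.00794). Ajuba, a LIM protein of cell contacts, and Pkp3, a plakophilin of desmosomes, had log2 fold changes of -0.69 (edgeR p = 0.0060, exact permutation p = 0.00794) and -0.58 (edgeR p = 0.0074, exact permutation p = 0.00794), both without overlap. Ric3, a chaperone of acetylcholine receptors, had a log2 fold change of -0.67 (edgeR p = 0.0049, exact permutation p = 0.0238).

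The respiratory chain and the ribosomes gave no member with p below 0.05. Of 79 nuclear-encoded subunits of the respiratory chain 55 were lower in old B6-mtAKR mice, with a median log2 fold change of -0.07, and of 78 genes of the mitochondrial ribosome 61 were lower, with a median of -0.07. Of 80 genes of the cytosolic ribosome 73 were higher, with a median of 0.14. These medians turned with the mice used. Without B6 replicate 3 the respiratory chain was at 0.20 and the mitochondrial ribosome at 0.12, and in the 19-month mice alone they were at -0.34 and -0.32. The cytosolic ribosome was at -0.18 in the 19-month mice alone. The shifts were within the spread between mice of the list medians, 0.40, 0.29 and 0.43 (SD), so no direction is given for these lists.

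**Figure D5:**
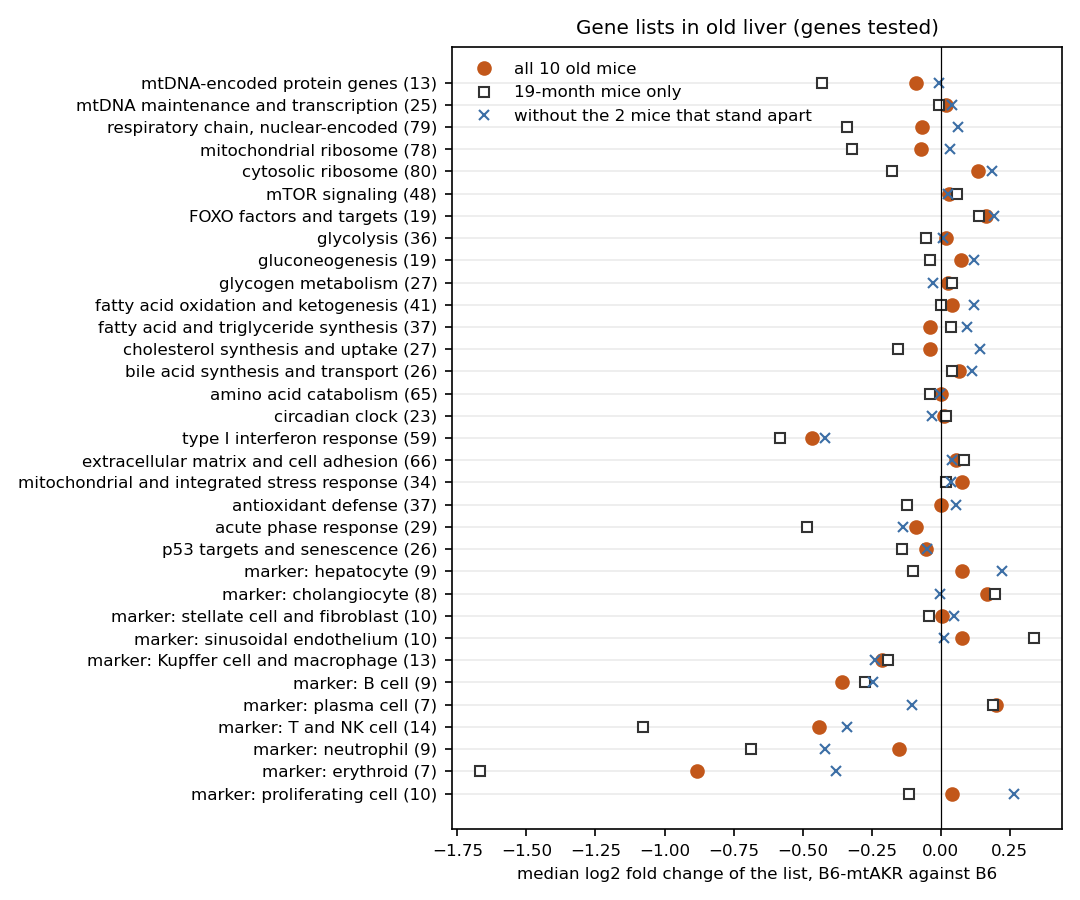
Median log2 fold change of B6-mtAKR over B6 in old mice for each gene list, with the number of genes tested in brackets, as circles for all 10 mice, squares for the 19-month mice alone and crosses without both mice that stood apart. The interferon list lies at -0.47, -0.58 and -0.42, while the respiratory chain, at -0.07, -0.34 and 0.06, changes sign.

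In the other lists few members had p below 0.01. None of 66 genes of extracellular matrix and adhesion did, with a median of 0.05. Levels did not overlap between the strains in 1 of the 66, against 0.604% of all genes. This was Itga5, an integrin subunit (log2 fold change -0.31, edgeR p = 0.014, exact permutation p = 0.00794). None of 34 stress response genes had p below 0.01, with a median of 0.08, none of 37 antioxidant genes, with a median of 0.00, and none of 29 acute phase genes, with a median of -0.09. Orm1 and Orm3, which encode acute phase glycoproteins, had log2 fold changes of -0.53 (edgeR p = 0.029, exact permutation p = 0.0635) and -1.58 (edgeR p = 0.014, exact permutation p = 0.0317). Of 26 liver genes known to be higher in females 2 had p below 0.01, against 0.48% of all genes, namely Cyp2b13, which was higher, and A1bg, which was lower, and the median was 0.01. The summed level of these 26 was 16551 to 19944 CPM in old B6 mice and 5299 to 17425 CPM in old B6-mtAKR mice, with the lowest sums in B6-mtAKR replicates 3, 4 and 5.

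The check against 19-month B6 mice left the directions as they were. All 74 genes with p below 0.01 had the same direction when only the 19-month mice were used, as they did with month of age in the model and without both mice that stood apart. These fits reuse mice that chose the genes. In the 19-month mice alone, 13 of the 74 still had p below 0.01, with 2 B6 mice in the fit. With the month of age as a term 21 of the 74 did, and without both mice that stood apart 28 did. In 26 of the 74 genes the B6-mtAKR mice overlapped the range of the 2 19-month B6 mice. Of the 30 named genes, 24 had p below 0.05 in the 19-month mice alone, among them mt-Nd3, Nr1d1, Adgrf1, Igtp and Loxl4.

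Young mice of the same strains were not used to choose the genes. Of the 74 genes, 39 had the same direction in young mice, or 52.7%, where 52.3% of all genes did. With p below 0.05 in young mice, 5 of the 74 had the same direction and 2 the opposite direction, where 3.35% of all genes had p below 0.05 in either direction. Among all genes, 91 (0.591%) had p below 0.01 in young mice. The 1 of the 74 that was also among them in the same direction was mt-Nd3, at -1.66 in young mice (edgeR p = 0.0056, exact permutation p = 0.0159), where the share given to its copy separated the strains in the same way. Epcam, one of the 74, was among them in the opposite direction. Of the 30 named genes, 4 had p below 0.05 in the same direction in young mice, namely mt-Nd3, Ppp1r3g, Tcp11l2 (0.64, edgeR p = 0.018, exact permutation p = 0.0556) and Mycl (0.47, edgeR p = 0.027, exact permutation p = 0.0556).

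For a difference in strain effect between old and young mice, 103 genes, or 0.669% of the genes tested, had an interaction p below 0.01. An adjusted p below 0.05 was found in 0 genes by edgeR and in 1, Ide, by DESeq2. The smallest p was that of Ide, the insulin-degrading enzyme, with an interaction of -1.03 on the log2 scale (SE 0.169, edgeR adjusted p = 0.076). Ide was lower in old B6-mtAKR mice, at a log2 fold change of -0.38, and higher in young ones, at 0.66. Ide was named after its value was seen. Among the 74 genes chosen in old mice 21 had an interaction p below 0.01, a count to which the choice by the old mice itself contributes. They included Paxx (-1.08, SE 0.302), Itpk1 (-0.52, SE 0.154), Loxl4 (-1.56, SE 0.487) and Cdx4 (-1.90, SE 0.616), with log2 fold changes in young mice of 0.27, 0.10, 0.47 and 0.50.

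Among markers of bile duct cells, Epcam had strain differences of opposite sign at the 2 ages. Epcam, an adhesion protein of the bile duct epithelium, was at 1.201, 1.35, 0.665, 1.45 and 1.47 CPM in old B6 mice and at 1.59, 1.83, 2.03, 2.37 and 3.18 CPM in old B6-mtAKR mice. The strains did not overlap in old mice (log2 fold change 0.84, SE 0.250, edgeR p = 0.0056, exact permutation p = 0.00794, with edgeR p no longer below 0.01 without B6-mtAKR replicate 5). In young mice it was lower in B6-mtAKR, with a log2 fold change of -1.14 (edgeR p = 0.0074, exact permutation p = 0.00794), and the interaction was 1.99 with an SE of 0.451. Spp1, osteopontin, a secreted protein of bile duct cells, had a log2 fold change of 0.37 in old mice (edgeR p = 0.10, exact permutation p = 0.0873) and -1.13 in young mice (edgeR p = 0.011, exact permutation p = 0.0238), with an interaction of 1.51 (SE 0.453). Of the 8 markers of this list 7 were higher in old B6-mtAKR mice, with a median of 0.17, against a median of -0.77 in young mice. The summed level was 46.8 to 85.8 CPM in old B6 mice and 67.7 to 98.1 CPM in old B6-mtAKR mice. Without both mice that stood apart the old median was -0.002, and the log2 fold change of Epcam was 0.52, no longer with p below 0.01.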

How the data were processed

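Liver RNA of 20 mice was sequenced as stranded total RNA in 75-nt pairs. Per the labels and the submitters' processing notes, the authors ran kallisto 0.43.0 and deposited estimated counts and TPM per transcript on mm10. The deposited TPM values were used only in an alternative. Estimated counts were summed to genes with GENCODE M21 and rounded, and 1325 of 96626 transcripts, with 0.296% to 0.555% of the counts of an old mouse, had no gene there. The 15403 genes that reached 5 counts in 47% or more of the 20 mice were kept. Old B6-mtAKR and old B6 mice were compared with edgeR 4.0.16 (TMM, robust quasi-likelihood F-test, Benjamini-Hochberg adjustment, R 4.3.3), and single genes with a two-sided exact permutation test over 252 arrangements on log2(CPM + 0.5), run in old and in young mice. CPM are on the total counts scaled by TMM. Alternatives used DESeq2 1.42.0, limma voom 3.58.1, other normalizations and filters, a replicate block, month of age and subsets of mice. The members and the gene lists were chosen with earlier results of these data known, so counts over a list carry no test. Named were the 15 higher and 15 lower genes with the smallest p (mean of at least 1 CPM, no pseudogene or unnamed model), genes the study names, and the 4 members of each list with the smallest p. On simulated counts for old mice (15403 genes, dispersion 0.07), the test recovered 10.4% of genes changed 1.5-fold, 61.2% changed 2-fold and 100% changed 4-fold, with 3.39% false calls. The simulation changed only well-counted genes, gave all genes the same dispersion and held no mouse that stood apart. These shares are therefore not the power of the test in the real mice. The 2 strains' replicates differed beyond sampling noise, so none was taken as a repeat. Some single genes are not reported here.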

Additional observations from a re-analysis of the deposited data

Results flagged for a closer look

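In 23 of the 230 groups of 5 old mice looked at, 1 mouse lay far from the other 4 (Dixon's gap over range above 0.71). For independent values with a normal distribution, about 1 in 20 groups would pass. Levels in CPM need not be normal and the genes are not independent, so the 23 cannot be set against that rate. Among B6 mice, replicate 3 was high in Cd2, a T cell receptor (1.23 CPM), in the major urinary protein genes Mup15 (1325 CPM) and Mup17 (1638 CPM), whose reads are shared with other family members, and in the mitochondrial ribosome gene Mrps27 (46.9 CPM), and low in the clock gene Clock (23.6 CPM). Its median Spearman correlation with the other old mice, 0.973, was low. B6 replicate 4 was high in the acute phase gene Orm2 (159.9 CPM) and in the fibroblast gene Dpt (5.28 CPM). B6 replicate 5 was high in Mtor (28.1 CPM) and in the sterol exporter gene Abcg8 (57.1 CPM), and B6 replicate 1 was low in the clock gene Per1 (3.32 CPM).

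Among B6-mtAKR mice, replicate 3 was high in the interferon response gene Ifi27 (249 CPM). Replicate 4 was high in Mtor (32.1 CPM), in the lipin genes Lpin1 (167 CPM) and Lpin2 (292 CPM), in the lipid droplet gene Plin4 (3.21 CPM) and in the hormone gene Fgf21 (6.34 CPM). B6-mtAKR replicate 5 was high in mt-Nd5 (5155 CPM), in the macrophage gene Gpnmb (14.9 CPM), in the antibody gene Ighg2c (45.7 CPM), in the glutathione transferase gene Gsta1 (90.4 CPM), in the stress gene Trib3 (6.27 CPM) and in the ribosomal gene Rpl22l1 (54.7 CPM).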

How the results depend on the processing

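The number of genes with p below 0.01 for strain in old mice, 74, was 170 with DESeq2, 165 with the replicate block, 185 with month of age in the model and 132 with the transcripts detected as a batch. It was 42 to 122 when 1 mouse was left out (42 without B6-mtAKR replicate 4, 49 without B6 replicate 1, 114 without B6-mtAKR replicate 3, 122 without B6-mtAKR replicate 1). With month of age the split was 48 higher and 137 lower, and in the 19-month mice alone it was 26 and 76, against 42 and 32. Adjusted p was below 0.05 in 4 genes with DESeq2 (Nr1d1, Adgrf1, mt-Nd3 and Ighv14-2), in 3 with month of age (Slc13a3, Cyp2c55 and Ighv14-2) and in 0 when any 1 mouse was left out. The interaction with age gave 64 to 132 genes when 1 old mouse was left out, against 103. Its adjusted count was 1 with DESeq2 (Ide) and 0 to 1 when 1 mouse was left out (Ide, without B6-mtAKR replicate 2).

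Signs turned in these genes. The log2 fold change of mt-Nd3 was 0.085 when summed with its copy. With month of age and in the 19-month mice alone it was -0.050 and -0.055 for Polrmt, -0.0053 and -0.0098 for Tfam, 0.019 and 0.013 for Arntl, -0.084 and -0.086 for mt-Co3, 0.12 and 0.11 for Ppp1r3c, 0.26 and 0.25 for Clock, -0.229 and -0.231 for mt-Nd4l, -0.289 and -0.292 for mt-Atp6, -0.409 and -0.410 for mt-Nd4, 0.32 and 0.31 for Oas2 and 0.15 and 0.14 for Oas1b. With scaled TPM it was -0.41 for Polrmt and -0.066 for Gys2, and without both mice that stood apart 0.025 for mt-Co2 and 0.23 for Ifi27. For Oas1b it was also 0.0045 with limma voom, 0.023 with the replicate block and 0.0073 with the transcripts detected as a batch. When 1 mouse was left out it was -0.39 to 0.15 for mt-Co1, -0.060 to 0.019 for Vdac1, -0.049 to 0.34 for Coq7, -0.023 to 0.095 for Polrmt, -0.14 to 0.54 for mt-Co3, -0.48 to 0.15 for mt-Nd6, -0.044 to 2.71 for Ighg2c, -0.22 to 0.0052 for Clock, -0.074 to 0.039 for Cry2, -0.0086 to 0.13 for Gys2, -0.59 to 0.46 for mt-Co2, -0.19 to 0.28 for mt-Nd4l, -0.19 to 0.26 for mt-Atp6, -0.24 to 0.33 for mt-Nd4, -0.53 to 0.096 for Ifi27, -0.28 to 0.19 for Oas2 and -0.13 to 0.23 for Oas1b. Of 2681 values of 112 genes under all alternatives, 68 were of the other sign. Apart from the sum of mt-Nd3 the cause was not tested.

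The replicate numbers were not taken as pairs, since 1 of 5 same-numbered pairs correlated at 0.0637 in its deviations, under the 0.1 set for each pair. The mean over same-numbered mice was 0.156 (highest 0.217) and over different numbers -0.038, and 5 of 10 mice correlated best with their own number, which is a hint from the data and not from the design. With the replicate block 59 of the 74 genes had p below 0.01. Of the genes of the text, Stbd1, Lpin2, Abcg5, Abcg8 and Npas2 then had p below 0.01 too, and Cmpk2, Rsad2 and Dbp no longer did. The 5 mice a group, with 2 B6 mice at 19 months, limited the precision.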
